A study of Mus musculus with 17 samples.

Results

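The cells described here are kidney tubule cells that carry UMIs of Slc7a13 or Cyp7b1, a gate drawn for the straight segment of the proximal tubule (S3). They were chosen by their measured counts. Barcodes entered with 200 or more genes and no more than 30% of UMIs from mitochondrial genes. A cell then needed at least 2 UMIs of Slc7a13 and Cyp7b1 together, more than its UMIs of Slc5a2 and Slc5a12, no UMI of Ptprc or Slc12a1 and at most 1 UMI of Aqp2. The gate held 7882 of 68159 kidney cells kept in 9 libraries, and of 98780 cells kept in the whole series. A UMI (unique molecular identifier) counts 1 captured RNA molecule.

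The proximal tubule reabsorbs most of what the glomerulus filters, and its segments divide the work. The convoluted segments recover glucose, phosphate and amino acids in bulk through carriers such as Slc5a2 (SGLT2) and Slc34a1 (the sodium-phosphate cotransporter). The straight segment S3 runs down to the outer medulla, expresses its own amino acid and organic anion carriers (Slc7a13, Slc22a7) and the sterol hydroxylase Cyp7b1, and is known as a site of toxic injury. In mice many of its transporters and cytochromes, Slc7a13 and Cyp7b1 among them, are known to be higher in males. Aristolochic acid (AA) is a plant nephrotoxin that is taken up by organic anion transporters, forms DNA adducts and causes tubular loss with fibrosis.

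All mice were 8 weeks old and carried PDGFRb-Cre and the Z/EG reporter, which turns on GFP where Cre has acted. SARATg mice also carried the SARA transgene (human ZFYVE9 behind a lox-stop-lox cassette), and SARAWT mice did not. AA was given intraperitoneally at 5 mg/kg body weight, 3 times a week for 3 weeks. GFP+ kidney cells were sorted, and the libraries were SARAWT vehicle (n = 3), SARAWT AA (n = 3), SARATg vehicle (n = 2) and SARATg AA (n = 1). The labels do not say how many mice went into a library, so a p-value measures the spread between libraries. The sorted cells are labelled PDGFRb+. However, Pdgfrb itself stood at 0 CPM (a gene's UMIs per 1000000 UMIs of the summed cells) in 6 of the 9 libraries' Slc7a13/Cyp7b1 cells. It was at 0.0117 CPM in SARAWT vehicle 1, at 13.5 CPM in SARAWT vehicle 2 and at 57.9 CPM in SARATg AA 1. Each of those 3 values came from 1 cell.

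The libraries held 28660151 to 137093834 UMIs, and 1.66% to 2.13% of a library's barcodes were also found in another kidney library. Several libraries stood apart from their labels. SARAWT vehicle 2 and SARATg AA 1 were the 2 libraries with high Xist (1349 and 1336 CPM over all kept cells, at most 0.513 CPM in the other 7), so they hold female cells. Zfyve9, the mouse gene for SARA, was at 95.8 and 92.2 CPM over all cells of SARATg vehicle 1 and 2 and at 166 CPM in the library labelled SARAWT AA 1. It was at 20.7 CPM in the library labelled SARATg AA 1 and at 10.9 to 31.9 CPM in the other 5. The gene list has no entry for the human transgene, so this checks only reads assigned to the mouse gene. The library labelled SARAWT vehicle 3 carried p53 targets at an AA-like level in convoluted segment cells, and between the other vehicle libraries and the AA libraries in Slc7a13/Cyp7b1 cells, as given with those genes.

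The number of Slc7a13/Cyp7b1 cells ran over 3 orders of magnitude. SARAWT vehicle 1, 2 and 3 held 5461, 17 and 212, the SARAWT AA libraries 81, 158 and 34, the SARATg vehicle libraries 1141 and 775, and SARATg AA 1 held 3. The 2 Xist-high libraries had the 2 lowest counts. Their cells with the convoluted segment profile (at least 2 UMIs of Slc5a2 and Slc5a12 and more than of Slc7a13 and Cyp7b1) were not scarce, at 3927 and 702. As a percent of both tubule segments together, Slc7a13/Cyp7b1 cells were 75.6% (95% exact binomial interval 74.6 to 76.6), 0.431% (0.251 to 0.689) and 20.8% (18.4 to 23.4) in SARAWT vehicle 1, 2 and 3. The SARAWT AA libraries had 16.2% (13.1 to 19.7), 14.6% (12.5 to 16.8) and 7.85% (5.50 to 10.8), inside the range of the vehicle libraries. The SARATg vehicle libraries had 68.2% and 63.8%, and SARATg AA 1 had 0.426% (0.0878 to 1.24). These intervals cover counting error only.

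**Figure D1:**
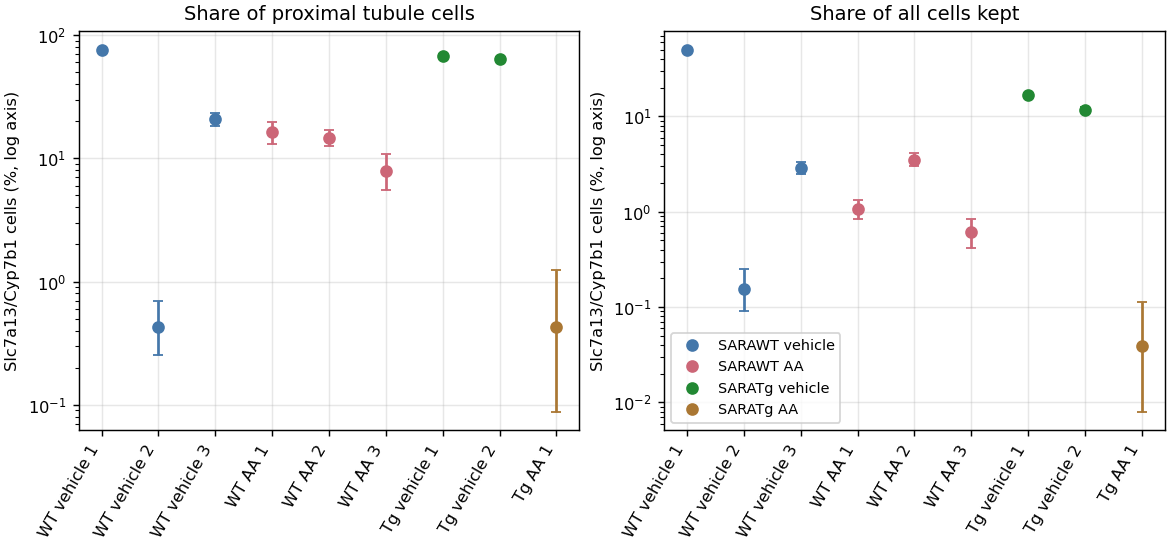
Slc7a13/Cyp7b1 cells as a percent of proximal tubule cells (left) and of all cells kept (right) in each of the 9 kidney libraries, on log axes. Points are libraries colored by group and bars are 95% exact binomial intervals. SARAWT vehicle libraries spread from 0.431% to 75.6% of proximal tubule cells, and the 3 SARAWT AA libraries, at 7.85% to 16.2%, lie between them.

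The mean share of proximal tubule cells was 32.3% ± 38.9 (SD, n = 3) in SARAWT vehicle and 12.9% ± 4.43 (SD, n = 3) in SARAWT AA, and the gap of -19.4 percentage points had p = 0.7 in an exact permutation over libraries (two-sided; 3 against 3 cannot go below 0.1). The share of all kept cells was 17.5% ± 27.7 against 1.72% ± 1.56, a difference of -15.8 points (exact permutation p = 0.7). Both differences rested on SARAWT vehicle 1: without it they were 2.26 and 0.209 points. Since the gate reads Slc7a13 and Cyp7b1, fewer cells and less of these RNAs per cell cannot be told apart.

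The 3 marker genes of S3 did not stand together in every library, so they did not bear out the S3 label equally throughout. The amino acid carrier Slc7a13 was at 747, 284 and 773 CPM in SARAWT vehicle 1, 2 and 3, at 626, 1068 and 567 CPM in SARAWT AA 1, 2 and 3, and at 731 and 522 CPM in SARATg vehicle 1 and 2. Cyp7b1 was at 1.29, 27.0 and 573 CPM, at 825, 708 and 280 CPM, and at 1.03 and 9.45 CPM in the same order. Slc22a7, the organic anion transporter OAT2, which the gate did not use, was at 32.5, 40.5 and 436 CPM, at 227, 467 and 194 CPM, and at 46.1 and 14.0 CPM. SARAWT vehicle 3 and the AA libraries thus had all 3 markers at 194 CPM or more, while in SARAWT vehicle 1 and both SARATg vehicle libraries only Slc7a13 was. Slc22a7 in these latter gated cells was still above other cells of the same library. It was at 2.13, 1.51 and 0.211 CPM in convoluted segment cells of SARAWT vehicle 1 and SARATg vehicle 1 and 2. In their Ptprc-positive cells it was at 8.83, 8.74 and 1.31 CPM. The 30 straight segment genes summed to 68863, 64385 and 35443 CPM in the gated cells and to 24188, 13584 and 8139 CPM in convoluted segment cells.

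Some straight segment genes outside the gate split the libraries the same way, and others did not. Napsa, an aspartic protease of proximal tubule lysosomes, was at 1254, 2032 and 9047 CPM in the SARAWT vehicle libraries, at 7333, 9824 and 8981 CPM in SARAWT AA, and at 1219 and 1402 CPM in SARATg vehicle. The organic anion and urate carrier Slc22a13 was at 1.71, 155 and 202 CPM, at 233, 277 and 356 CPM, and at 1.49 and 16.7 CPM. The brush border protease Mep1b was at 75.1, 40.5 and 546 CPM, at 376, 485 and 423 CPM, and at 68.3 and 28.8 CPM. For Napsa and Mep1b SARAWT vehicle 3 stood with the AA libraries, and for Slc22a13 it was next to them with SARAWT vehicle 2 below it. In SARAWT vehicle 2, 143 of the 301 Napsa UMIs were in 1 cell, and 11 of the 23 Slc22a13 UMIs were in 1 cell. Cyp2e1, a cytochrome of the same list, ran the opposite way, at 694, 169 and 67.1 CPM in SARAWT vehicle, at 20.2, 50.5 and 12.9 CPM in SARAWT AA, and at 759 and 1110 CPM in SARATg vehicle. Cyp4b1, another, was at 1581, 216 and 306 CPM, at 247, 151 and 315 CPM, and at 1670 and 634 CPM.

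Genes of the convoluted segment list ran the other way between libraries. Slc34a1 was at 2387, 1883 and 125 CPM in SARAWT vehicle 1, 2 and 3, at 98.6, 274 and 90.6 CPM in SARAWT AA, and at 2209 and 882 CPM in SARATg vehicle. Slc22a6, the organic anion transporter OAT1 that carries AA, was at 838, 378 and 35.3 CPM, at 14.4, 28.9 and 38.8 CPM, and at 775 and 1065 CPM. The inositol oxygenase Miox was at 3034, 4104 and 364 CPM, at 175, 375 and 94.9 CPM, and at 3447 and 636 CPM. The gate kept out cells rich in Slc5a2 and Slc5a12 but not in these genes. The fatty acid carrier Slc27a2, a gene of the straight segment list, did not follow the split and differed little, at 1799 to 2359 CPM in these 8 libraries.

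**Figure D2:**
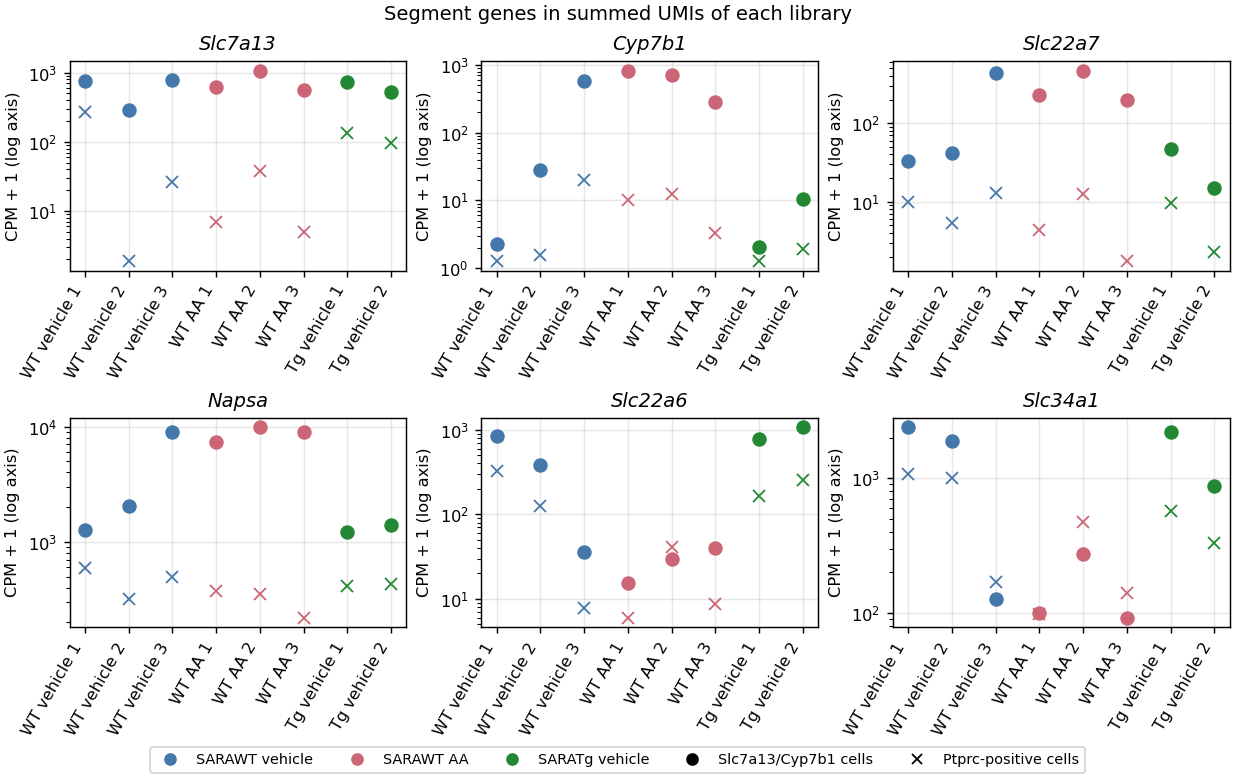
CPM plus 1 on log axes for 6 segment genes in each library except SARATg AA 1, which held 3 cells. Dots are the summed Slc7a13/Cyp7b1 cells and crosses the summed Ptprc-positive cells of the same library, colored by group. Slc7a13 is high in the dots throughout, whereas Cyp7b1, Slc22a7 and Napsa are high in SARAWT vehicle 3 and SARAWT AA and Slc22a6 and Slc34a1 in the other libraries.

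Slc22a6, which the gate did not use, was split at equal depth too. After thinning each cell to 5000 UMIs, 93.0% of 4908 cells had a Slc22a6 UMI in SARAWT vehicle 1, 91.0% of 1060 in SARATg vehicle 1 and 94.2% of 747 in SARATg vehicle 2 (98.6%, 97.2% and 96.6% unthinned). The shares were 9.60% of 198 cells in SARAWT vehicle 3 and 6.76% of 74, 9.89% of 91 and 18.8% of 32 in the AA libraries (14.6%, 13.6%, 10.1% and 20.6% unthinned). Thinning left out 553, 81, 28, 14, 7, 67 and 2 cells in that order. In thinned convoluted segment cells the shares were 75.4%, 51.0%, 58.5%, 36.6%, 42.1%, 50.4% and 30.9%. The gated cells of SARAWT vehicle 1 and SARATg vehicle thus had Slc22a6 more often than convoluted segment cells, so there it did not set the segments apart as its list would have it. In thinned Ptprc-positive cells of these libraries the shares were 39.9%, 19.3%, 28.1%, 2.54%, 1.88%, 12.7% and 1.81%. Unthinned they were 28.0%, 11.7%, 13.1%, 1.95%, 1.33%, 6.17% and 2.08%. In SARAWT AA 2 the gated cells, at 9.89%, were thus below the Ptprc-positive cells. Cyp7b1 is given as a description, since the gate read it. In the same order 0.102%, 0.283%, 1.74%, 73.7%, 85.1%, 75.8% and 50% of the thinned cells had a Cyp7b1 UMI (0.238%, 0.613%, 2.97%, 91.0%, 92.6%, 84.8% and 64.7% unthinned).

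Tubule RNA in leukocyte barcodes bears on these shares. Whether it came from RNA outside cells or from cells that shared a barcode was not tested. Ptprc-positive cells, which are leukocytes and should lack tubule carriers, had Slc7a13 at 267 CPM in SARAWT vehicle 1, at 131 and 96.7 CPM in SARATg vehicle 1 and 2, and at 0.893 to 36.7 CPM in the other 5 of these 8 libraries. At 5000 UMIs per cell 32.1% of the Ptprc-positive cells in SARAWT vehicle 1 had a Slc7a13 UMI (23.4% unthinned), and 686 of 1337 such cells were too shallow and left out. In SARAWT vehicle 3 it was 2.54% (1.59% unthinned), with 3044 of 5330 left out. The gated cells had 91.7% and 85.4%, which the gate itself set (median depth before thinning 14565 and 16674 UMIs, against 4867 and 3920 UMIs in Ptprc-positive cells). How much of the gate's membership in SARAWT vehicle 1 and SARATg vehicle came from RNA of other cells was not tested. In SARAWT vehicle 3 and SARAWT AA 1, 2 and 3 the Ptprc-positive cells had Slc34a1 at 167, 96.5, 471 and 139 CPM. This was about as much as or more than in the Slc7a13/Cyp7b1 cells, so Slc34a1 there did not clearly stand above the level of Ptprc-positive cells. Just inside the threshold, SARAWT vehicle 1 had 613 cells with 2 marker UMIs (median 6810 UMIs), and just outside it 636 cells with 1 (median 4907 UMIs). SARAWT vehicle 3 had 15 and 23, and SARATg vehicle 2 had 134 and 267. SARAWT vehicle 2 had 11 and 97, so 11 of its 17 gated cells stood at the threshold.

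Cells with Cyp7b1 were present in the libraries with little of it too, in small number. At least 2 UMIs of Cyp7b1 were found in 4 of the 5461 cells of SARAWT vehicle 1 and in 19 of the 775 of SARATg vehicle 2, against 167 of 212 in SARAWT vehicle 3 and 66 of 81, 104 of 158 and 18 of 34 in SARAWT AA. In those 19 cells Napsa was at 9142 CPM, Slc22a13 at 214 CPM, Slc22a19 at 222 CPM and Slc34a1 at 159 CPM. In the 752 cells of the same library without a Cyp7b1 UMI the levels were 1129, 9.12, 4.64 and 908 CPM. The 4 cells of SARAWT vehicle 1 had Napsa at 9218 CPM, with 351 of its 502 UMIs in 1 cell, and Slc34a1 at 514 CPM, beside 1249 and 2389 CPM in its 5448 cells without Cyp7b1. The 2 such cells of SARAWT vehicle 2 had 0 Napsa UMIs, and of the 2 of SARATg vehicle 1 only 1 had any, with 291. In SARAWT vehicle 3 and SARAWT AA, cells without a Cyp7b1 UMI also had Napsa at 7371 to 9330 CPM, as those with it did at 7328 to 10474 CPM. These are descriptions, since Cyp7b1 chose the cells.

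Injury genes differed in how they went with Cyp7b1. Spp1 (osteopontin), which injured tubules secrete, was at 58.0 CPM in the 19 Cyp7b1 cells of SARATg vehicle 2. There 14 of its 23 UMIs were in 1 cell. In the 4 of SARAWT vehicle 1 it was at 18.4 CPM, from 1 UMI. Of the 2 such cells of SARAWT vehicle 2, 1 had 25 Spp1 UMIs (3941 CPM over both), and the 2 of SARATg vehicle 1 had none. It was at 6868 CPM in those of SARAWT vehicle 3 and at 2267, 2557 and 11650 CPM in those of SARAWT AA 1, 2 and 3, with 50.7% and 57.0% of the Spp1 UMIs of SARAWT AA 1 and 3 in 1 cell each. The p53 target Phlda3 was at 2.52 CPM in SARATg vehicle 2, from 1 UMI, and at 15.4 CPM in SARAWT vehicle 3. In SARAWT AA it was at 31.2, 29.6 and 106 CPM. Of the Phlda3 UMIs, 19 of 39 in SARAWT AA 1 and 12 of 29 in SARAWT AA 3 were in 1 cell each. Havcr1 (KIM-1), a receptor that appears on injured tubule cells, was at 55.5 CPM in the 19 Cyp7b1 cells of SARATg vehicle 2, where 8 cells had a UMI and 1 cell held 11 of the 22, against 2.84 CPM in the cells without a Cyp7b1 UMI. Its 110 CPM in the 4 Cyp7b1 cells of SARAWT vehicle 1 came from 1 cell with 6 UMIs. In the Cyp7b1 cells of SARAWT vehicle 3 it was at 192 CPM and in those of SARAWT AA at 108 to 121 CPM. In SARAWT AA 3, 21 of its 33 UMIs were in 1 cell.

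**Figure D3:**
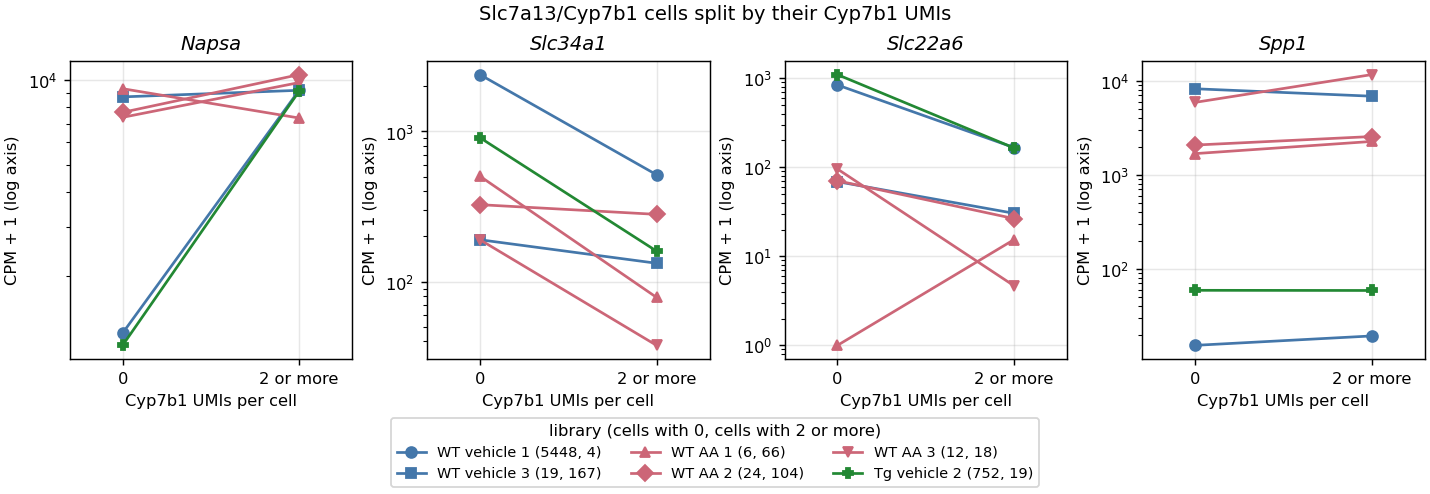
Slc7a13/Cyp7b1 cells of the 6 libraries with 4 or more cells on each side, split into those with no Cyp7b1 UMI (left) and those with at least 2 (right), with CPM plus 1 on log axes for 4 genes. Lines join the values of 1 library, and the legend gives the number of cells on each side. Napsa meets near 9200 CPM in SARAWT vehicle 1, SARAWT vehicle 3 and SARATg vehicle 2 once Cyp7b1 is present, while Spp1 stays at 58.0 CPM or less in SARAWT vehicle 1 and SARATg vehicle 2.

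SARAWT AA was compared with SARAWT vehicle to ask what AA does to these cells. No gene of 10531 tested passed (edgeR quasi-likelihood test, Benjamini-Hochberg adjusted p under 0.05; 0% called higher and 0% lower), with 662 at an unadjusted p under 0.05. DESeq2 called 33. The fit held 8 libraries, SARATg vehicle included, and left out SARATg AA 1 with its 3 cells. Of all genes tested, 6.55% had every AA library above every vehicle library and 3.66% every AA library below.

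A gene could pass the filter on low counts through the AA libraries alone, so the list counts and medians that follow describe the genes that passed. Among p53 targets, genes that DNA damage turns on, 28 of 32 were tested and the median log2 fold change was 0.65, beside 0.01 over all genes. In 7 of the 28 every AA library was above every vehicle library (6.55% of all genes), among them Phlda3, Bax, Rps27l and Zmat3. Phlda3 was at 0.968, 0 and 16.1 CPM in the vehicle libraries and at 33.8, 27.5 and 64.7 CPM in the AA libraries (log2 fold change 2.37 ± 0.96 SE, edgeR adjusted p = 0.77), with 19 of the 47 UMIs of SARAWT AA 1 and 12 of the 30 of SARAWT AA 3 in 1 cell each. Cdkn1a (p21), which arrests the cell cycle, was at 25.2, 0 and 229 CPM against 184, 104 and 205 CPM, so the groups overlapped (log2 fold change 0.66 ± 0.90, adjusted p = 0.94). The cyclin Ccng1 was at 77.6, 54.0 and 176 CPM against 235, 169 and 403 CPM.

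SARAWT vehicle 3 carried the high value of the vehicle group in Phlda3, Cdkn1a and Ccng1, though not in Bax (86.1, 94.5 and 81.2 CPM). Summed over the 32 p53 targets, Slc7a13/Cyp7b1 cells had 1075, 1094 and 1730 CPM in SARAWT vehicle 1, 2 and 3, below each AA library at 2176, 1921 and 2853 CPM. In convoluted segment cells the sums were 1016, 1000.2 and 2307 CPM against 2157, 2365 and 2516 CPM, so SARAWT vehicle 3 lay among the AA libraries. There Cdkn1a was at 5.04, 5.81 and 351 CPM in SARAWT vehicle 1, 2 and 3, at 277, 207 and 264 CPM in SARAWT AA, and at 11.9 and 28.3 CPM in SARATg vehicle. Phlda3 in those cells was at 0.766, 1.32 and 30.5 CPM, then 19.7, 39.5 and 53.4 CPM, then 1.81 and 1.48 CPM. Without SARAWT vehicle 3 the Slc7a13/Cyp7b1 comparison called 324 genes of 8985 (2.39% higher and 1.21% lower). These included 6 of 25 p53 targets, all higher with a list median of 1.08 (Ccng1, Cdkn1a, Dglucy, Phlda3, Plk2 and Trp53inp1). In that fit Phlda3 passed the filter on low counts through the AA libraries alone, so it could only be called higher. With SARAWT vehicle 1 as the lone vehicle library 627 genes passed, and the lone library was assumed to vary like the others. The latter setting was chosen after the data were seen.

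**Figure D4:**
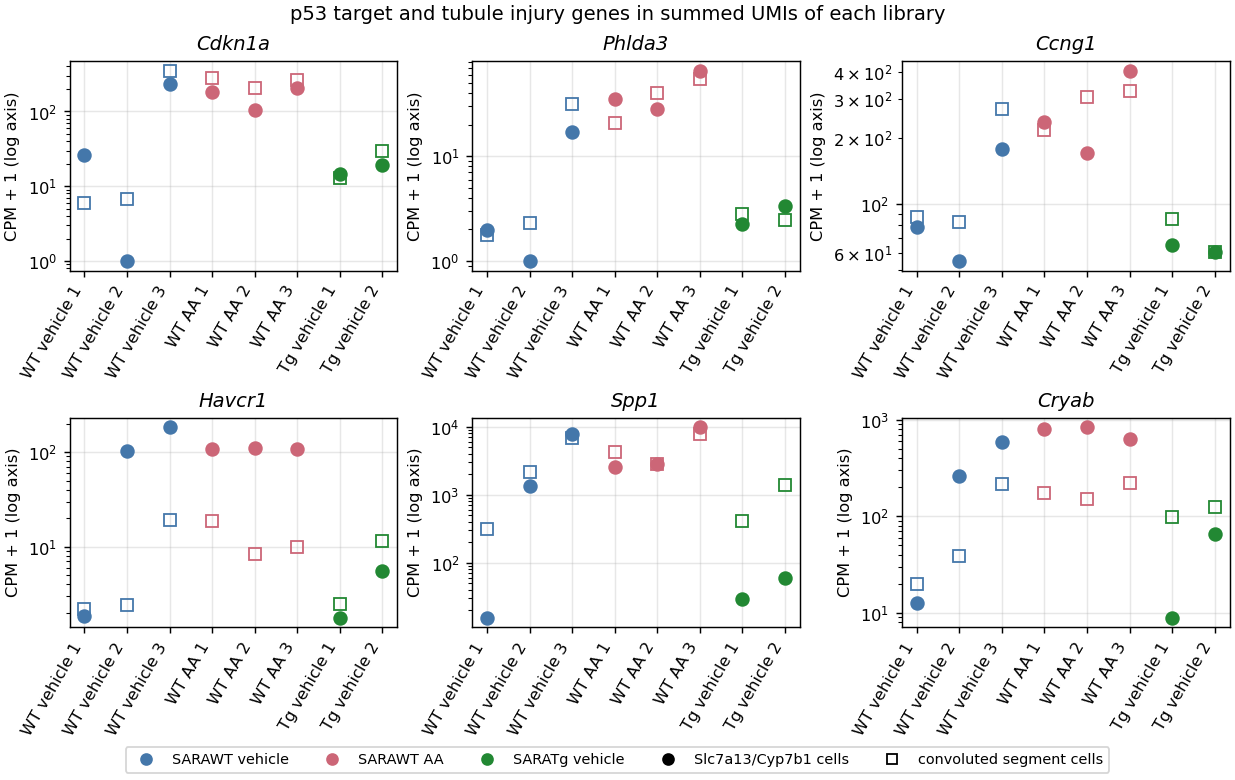
CPM plus 1 on log axes for 3 p53 targets (top) and 3 tubule injury genes (bottom) in each library except SARATg AA 1. Filled dots are summed Slc7a13/Cyp7b1 cells and open squares summed convoluted segment cells, colored by group. For Cdkn1a, at 229 and 351 CPM, SARAWT vehicle 3 is the highest library in both sets of cells. For Phlda3 its Slc7a13/Cyp7b1 cells, at 16.1 CPM, are below each AA library.

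Of 36 tubule injury genes 30 were tested, with a median log2 fold change of 0.58, which was 3.43 over 24 genes without SARAWT vehicle 3. Spp1 was at 14.5, 1364 and 7824 CPM in SARAWT vehicle and at 2568, 2797 and 9723 CPM in SARAWT AA, an overlap that left it at 0.59 ± 1.35 (edgeR adjusted p = 0.99). Havcr1 was at 0.851, 101 and 181 CPM against 107, 109 and 108 CPM, with 13 of its 15 UMIs in SARAWT vehicle 2 and 21 of its 50 in SARAWT AA 3 in 1 cell each. A single cell also held 40.3% and 40.1% of the Spp1 UMIs of SARAWT AA 1 and 3. The small heat shock protein Cryab was at 11.8, 263 and 583 CPM against 796, 828 and 634 CPM, with no overlap (1.38 ± 1.07, adjusted p = 0.84). Without SARAWT vehicle 3, 6 of those 24 were called, all higher: Anxa3, Clu, Lcn2, Lgals3, Tmsb10 and Vcam1. Over all genes 2.39% were called higher and 1.21% lower there. Anxa3 among them passed the filter on low counts through the AA libraries alone. It was at 0.443 and 0 CPM in SARAWT vehicle 1 and 2 and at 54.0, 8.16 and 8.63 CPM in SARAWT AA. Clu would not have passed that filter without the AA libraries. SARAWT vehicle 2 had 6 Clu UMIs, 5 of them in 1 cell. In SARAWT vehicle 3, left out there, 101 of 212 gated cells had a Clu UMI, beside 43 of 81, 52 of 158 and 20 of 34 in SARAWT AA.

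Of the 20 convoluted segment genes tested, 3 had a positive log2 fold change with AA, and the median was -0.87. Slc22a6 had the values given above (log2 fold change -3.89 ± 0.91, edgeR adjusted p = 0.72), and Slc22a8, the related transporter OAT3, was at 161, 500 and 7.31 CPM against 0, 12.6 and 0 CPM (-5.04 ± 1.39, adjusted p = 0.72). Of 30 straight segment genes 19 had a positive change, with a median of 0.49. Without SARAWT vehicle 3, 7 of 18 convoluted segment genes tested were called lower and 0 higher. Of 30 straight segment genes 7 were called higher and 1 lower (Cyp2e1), beside 2.39% higher and 1.21% lower over all genes. Since the gate reads genes of the segments, a change within a cell and a change in which cells pass the gate cannot be told apart.

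The AA uptake and activation list had 11 of 16 genes tested (median 0.29). Beside the organic anion transporters above, the urate carrier Slc22a12 was at 490, 425 and 482 CPM in SARAWT vehicle and at 628, 480 and 556 CPM in SARAWT AA. The reductase Nqo1, which activates AA, was at 20.9, 0 and 47.2 CPM against 54.0, 27.5 and 92.7 CPM. The epoxide hydrolase Ephx1 was at 0.280, 0 and 37.1 CPM against 36.7, 31.9 and 104 CPM (1.66 ± 1.27, edgeR adjusted p = 0.84), and at 0.719 and 1.08 CPM in SARATg vehicle. Of 10 genes of the list tested without SARAWT vehicle 3, 4 were called (median 0.56), beside 2.39% higher and 1.21% lower over all genes. Ephx1, which then passed the filter through the AA libraries alone, and Slc22a7 were higher, and Slc22a6 and Slc22a8 lower.

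General proximal tubule genes had a median of 0.01 over 23, with 6 above and 3 below without overlap (6.55% and 3.66% over all genes). In the fit without SARAWT vehicle 3, 4 of 22 were called higher (Aqp1, Slc16a9, Slc2a5 and Slc3a1) and 4 lower (Ass1, Dab2, Maf and Slc9a3). Over all genes 2.39% were called higher and 1.21% lower in that fit. The endocytic receptor Lrp2 (megalin) was at 1101, 2288 and 655 CPM in SARAWT vehicle and at 790, 905 and 1402 CPM in SARAWT AA.

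Cell cycle genes were low in the vehicle libraries, and several of the 15 tested passed the filter only through the AA libraries, so no count is given over them. The cyclin Ccna2 was at 0.315, 0 and 0 CPM in SARAWT vehicle and at 5.04, 3.71 and 10.8 CPM in SARAWT AA. The proliferation marker Mki67 was at 0.735, 0 and 1.26 CPM in SARAWT vehicle and at 21.6, 3.71 and 190 CPM in SARAWT AA (6.17 ± 1.45, adjusted p = 0.72 in edgeR), but 1 cell in each AA library held every Mki67 UMI, and in SARAWT AA 3 that cell held 88. Fatty acid oxidation and peroxisome genes had a median of -0.25 over 27 genes. Without SARAWT vehicle 3, 2 of them were called lower (Acaa2 and Cyp4a12a) and 0 higher, beside 1.21% and 2.39% over all genes. Nrf2 targets had -0.03 over 15, endoplasmic reticulum stress genes -0.21 over 14, and heat shock and immediate early genes -0.45 over 18. The medians of the latter 3 lists without SARAWT vehicle 3 were 0.46 over 14, with 1 gene called higher (Gstm1), 0.07 over 14 and -0.02 over 17.

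Markers of other cells also differed between libraries. Summed over 13 leukocyte genes other than Ptprc, Slc7a13/Cyp7b1 cells carried 42.9, 486 and 1115 CPM in SARAWT vehicle, 806, 950 and 2848 CPM in SARAWT AA, and 158 and 226 CPM in SARATg vehicle, so SARAWT vehicle 3 lay above 2 of the 3 AA libraries. Cd74, the invariant chain of MHC class II, gave most of the sum in SARAWT vehicle 2 and 3 and SARAWT AA, at 304, 736 and 551 to 1943 CPM, but not in SARAWT vehicle 1 or SARATg vehicle 1 and 2, at 19.6, 78.5 and 54.4 CPM. Of the leukocyte genes, 12 of the 12 tested had a positive change (median 1.54, and 3.55 over 11 without SARAWT vehicle 3). In the latter fit Fcer1g and Lyz2 were called higher, beside the p53 target and injury genes called there, and 10 of the 11 had an unadjusted p under 0.05. Over all genes of that fit 2.39% were called higher and 1.21% lower. An unadjusted edgeR p under 0.05, in either direction, was found for 1683 of 8985. The macrophage gene C1qb stayed at 34.5 CPM or less in the 8 libraries, and 0 to 7 of the 13 genes were at 0. The 11 genes of loop, distal tubule and collecting duct summed to 6.75 to 62.5 CPM, and the 16 of endothelium, podocytes and stroma to 2.16 to 87.8 CPM, with 15 of 16 at 0 in SARAWT AA 3. Of the 5 tested among the 16, 0 had a positive change with AA and 3 were lower without overlap, beside 3.66% over all genes. The median mitochondrial percent of the Slc7a13/Cyp7b1 cells was 13.9, 8.57 and 19.4 in SARAWT vehicle 1, 2 and 3, 18.5, 16.5 and 18.0 in SARAWT AA, and 16.6 and 14.6 in SARATg vehicle, so each AA library was above SARAWT vehicle 1 and 2. Their part in the values above was not tested.

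SARATg vehicle was set against SARAWT vehicle to ask what the transgene changes without AA. None of 10531 genes passed (edgeR, 0% higher and 0% lower; 462 at an unadjusted p under 0.05), and DESeq2 called 16. In 6.42% of genes both SARATg libraries were above all 3 SARAWT libraries and in 9.64% below. Zfyve9 was at 65.0 and 50.3 CPM against 23.6, 33.8 and 12.6 CPM, with no overlap (log2 fold change 1.62 ± 0.91, edgeR adjusted p = 1.0). In the library labelled SARAWT AA 1 it was at 203 CPM. Of the SARA and TGF-beta list 13 genes of 19 were tested, 10 of them positive (median 0.09). Smad7, an inhibitor in TGF-beta signaling, was at 49.8 and 44.9 CPM against 29.9, 27.0 and 10.3 CPM (1.25 ± 0.37, adjusted p = 1.0).

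Of the 27 fatty acid oxidation and peroxisome genes tested 21 were positive (median 0.38), of 30 straight segment genes 10 (median -0.59), and of 30 injury genes 7 (median -1.14). Cell cycle genes were low in SARAWT vehicle, so no count is given over them here either. Their 17 genes summed to 72.4, 101 and 70.6 CPM in SARAWT vehicle and to 113 and 535 CPM in SARATg vehicle. The cyclin Ccnd1, given below, made up most of each of these sums. In SARAWT vehicle 2, 11 of the 17 were at 0. Without SARAWT vehicle 3 the straight segment genes had 18 of 30 positive (median 0.10) and the injury genes 14 of 24 (median 0.23). Without SARAWT vehicle 1 their medians were -0.85 and -2.08.

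The library taken as control decided this comparison. Without SARAWT vehicle 1, 178 of 8991 genes were called (0.389% higher and 1.59% lower), among them 7 of 26 injury genes, all lower (Anxa2, Cdh6, Clu, Havcr1, Klf6, Spp1 and Vcam1). Of these, at least Anxa2, Clu and Havcr1 passed the filter on low counts through SARAWT libraries alone, so they could only be called lower. In SARATg vehicle 1 and 2 Anxa2 was at 4.21 and 5.89 CPM, Clu had 18 and 28 UMIs and Havcr1 15 and 55 UMIs. Without SARAWT vehicle 3 the called genes were 3 (0.0111% higher, 0.0223% lower). Spp1 was at 28.8 and 58.0 CPM in SARATg vehicle, beside 14.5 CPM in SARAWT vehicle 1 and 1364 and 7824 CPM in SARAWT vehicle 2 and 3. Peroxisomal Acaa1b was at 523 and 920 CPM in SARATg vehicle against 305, 317 and 196 CPM (1.57 ± 0.31, adjusted p = 0.97 in edgeR), and the cyclin Ccnd1 at 63.1 and 455 CPM against 37.6, 60.8 and 40.9 CPM. SARATg vehicle 2 also had Cyp4a14, a fatty acid hydroxylase, at 765 CPM, beside 4.93 CPM in SARATg vehicle 1.

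SARATg AA was to be set against SARAWT AA, but its library held 3 Slc7a13/Cyp7b1 cells with 69062 UMIs, so no fit was made. In these 3 cells Xist was at 1911 CPM and Cdkn1a at 1202 CPM, with 72 of its 83 UMIs in 1 cell, and the leukocyte genes summed to 7269 CPM.

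The change with AA was also compared between Slc7a13/Cyp7b1 cells and convoluted segment cells in the 6 SARAWT libraries, each giving a sum for both. None of 11571 genes differed (edgeR with the library as a block, 0% higher and 0% lower; 587 at an unadjusted p under 0.05; DESeq2 called 2). The straight segment genes had a median difference in log2 fold change of 0.97 over 30 genes and the convoluted segment genes -0.87 over 20, beside 0.00 over all genes. The 32 p53 targets had 0.12. In the gated cells the convoluted segment genes summed to 12331 and 15067 CPM in SARAWT vehicle 1 and 2. They summed to 4302 to 4537 CPM in SARAWT vehicle 3 and SARAWT AA. A change within a cell and a change in which cells passed the gate thus cannot be told apart. Without SARAWT vehicle 3, 480 of 11917 genes were called (2.12% with a higher and 1.9% with a lower change in Slc7a13/Cyp7b1 cells). Of these, 19 straight segment genes were higher and 4 lower, and of the p53 targets only Cdkn1a was called: its change was smaller than in convoluted segment cells by a log2 difference of -2.72 ± 0.42 (adjusted p = 3.9e-05), at 25.2 and 0 CPM in SARAWT vehicle 1 and 2 beside 5.04 and 5.81 CPM there. In Ptprc-positive cells Cdkn1a was at 29.4 and 31.9 CPM in the same libraries. SARAWT vehicle 2 had no Cdkn1a UMI in its 17 gated cells. Thus only SARAWT vehicle 1 was above its convoluted segment cells, and there Cyp7b1 and Slc22a7 were far below the AA libraries.

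Some genes known to differ between the sexes went with Xist in SARAWT vehicle 2, whose 17 cells give about 6.75 CPM per UMI. The prolactin receptor Prlr, higher in females, was at 628 CPM there (12 of 17 cells with a UMI) against 1.13 and 32.3 CPM in SARAWT vehicle 1 and 3. The oxidase Hao2 was at 2558 CPM (15 of 17 cells) against 298 and 478 CPM. The male-high genes Slco1a1 and Acsm3 were at 0 CPM there and at 620 and 107 CPM and 625 and 961 CPM in the others. Kap, an androgen-controlled protein, was at 3895 CPM against 53687 and 92535 CPM, and 574 of its 577 UMIs in SARAWT vehicle 2 came from 1 cell. The amino acid carrier Slc7a12 is known as higher in females. The gate reads male-high genes, so how Slc7a12 goes with Xist in S3 cells could not be judged here. In the gated cells of SARAWT vehicle 2 the 311 CPM of Slc7a12 came from 1 cell. Of the 3 cells of SARATg AA 1, 2 held its 88 UMIs. At 5000 UMIs per cell 13.1% of cells in SARAWT vehicle 3 and 28.1% to 43.2% in SARAWT AA had a Slc7a12 UMI. These libraries had Xist at 1.44 CPM or less.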

How the data were processed

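The authors deposited raw UMI counts per gene and cell barcode for each library, made from 10x 3' v3 libraries with Cell Ranger 3.0.2 on mm10 (per the labels, which also name Seurat 2.3.4). No normalization had been applied to these counts, and the cell calling behind the deposited barcodes is not given in the sources used here. All 9 kidney libraries share 1 gene list. Members and gene lists were chosen with earlier results of these data known.

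Cells were gated as described above, with no doublet caller. UMIs of gated cells were summed per library, and CPM are 1000000 times a gene's share of that sum. Libraries with at least 10 cells (8 of 9, 17 to 5461 cells and 148142 to 85753386 UMIs) entered edgeR 4.0.16 (R 4.3.3; filterByExpr, TMM, glmQLFit, glmQLFTest, two-sided) with a mean per group, or with library as a block, segment, and segment by AA. DESeq2 1.42.0 was an alternative. Standard errors are the log2 fold change over the square root of F. Adjusted p-values (Benjamini-Hochberg) run over all genes tested except the 7 genes of the gate and mitochondrial genes. The threshold was 0.05. Scripts were tested on simulated counts with known changes. Genes named in the text come from fixed lists (2 listed genes were found under older symbols, Tmem27 and Ctgf); up to 10 genes in each direction past the threshold, without overlap and at a mean of at least 10 CPM, were to be added, and none passed. Shares were tested by exact permutation over libraries. Alternatives were another test, size factors and filters, stricter gates, thinning, each library left out, a sex covariate and a replicate block.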

Additional observations from a re-analysis of the deposited data

How the results depend on the processing

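The counts of called genes were 0 in the 3 fitted comparisons. For AA against vehicle, DESeq2 called 33, leaving out 1 library at a time gave 0 to 324 (324 without SARAWT vehicle 3), leaving out SARAWT vehicle 3 and AA 1 together gave 256, SARAWT vehicle 1 as the lone vehicle library 627, and cells with at least 2 Cyp7b1 UMIs, with SARAWT vehicle 3 as the lone vehicle library, 1. A lone library was assumed to vary like the others. For SARATg against SARAWT in vehicle, DESeq2 called 16, leaving out 1 library 0 to 178 (178 without SARAWT vehicle 1), and SARAWT vehicle 1 as the lone SARAWT library 3. For the difference between Slc7a13/Cyp7b1 and convoluted segment cells, DESeq2 called 2, no filter on low counts 194 and the stricter cell filter 1. Thinning to 1000 UMIs called 28, and leaving out 1 library 0 to 480 (480 without SARAWT vehicle 3). The other settings called 0. Among these, the sex covariate set apart SARAWT vehicle 2 alone, as SARATg AA 1 was not fitted. It thus did not adjust for sex across groups. The cause of the changes in calls was not tested, beyond the values of SARAWT vehicle 3 and the smaller number of genes and libraries. The share of proximal tubule cells ranged from -35.3 to 2.26 points with 1 library left out, and the share of all cells from -24.5 to 0.209, both positive without SARAWT vehicle 1. At 1000 UMIs per cell they were -12.0 and -2.84. With the replicate number as a block and SARAWT libraries only, 0 genes were called, and pairing by number left the shares at -19.4 and -15.8 points (exact sign-flip p = 0.75 for each; the smallest is 0.25). Deviations of same-numbered libraries correlated at -0.0439, 0.0112 and 0.00566, and those of other pairs at -0.114 to 0.108. With 3 libraries per group this cannot show whether same-numbered libraries shared a batch. Of the alternative values for the listed genes traced across settings, 2116 kept direction and side of the threshold, 176 passed it and 144 changed sign without a call. A covariate for the gene list or Cell Ranger version was not run, as these did not vary, and no alternative of SARATg AA against SARAWT AA could be had with 3 cells. SARATg AA 1, with 3 cells and 69062 UMIs, was too shallow to fit, and SARAWT vehicle 2, with 17 cells and 148142 UMIs, is the shallowest library fitted.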
